A study of Mus musculus with 36 samples.

Results

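Acetylation of histone H3 forms short patches at most active start sites, but at a small set of genes the patches run together into wide stretches. The broad domains described here are 475 stretches of H3K9ac, acetylation of histone H3 at lysine 9, in mouse dorsal hippocampus. They were chosen on measured values: peaks from the 4 deposited H3K9ac lists were merged wherever they overlapped or touched on an assembled chromosome, and merged regions at least 3000 bp wide were kept. Those 475 domains were 0.919% of the 51682 merged regions and held 1.77 Mb, or 5.56% of the 31.9 Mb that the merged regions cover. Because H3K9ac width selected them, their H3K9ac values are descriptions without any test.

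The tissue came from male mice aged to 8 weeks, about which the labels give 4 conditions. Mice with a control vector were untreated or received ethanol by intraperitoneal injection (2 g/kg, as a 20% solution in saline). Mice with an ACSS2 knockdown vector, an AAV2/9 that drives a hairpin RNA from a U6 promoter and EGFP from a CMV promoter, were likewise untreated or given ethanol. No condition is labelled as injected with saline alone, so ethanol and the injection itself cannot be told apart in any contrast with untreated mice. The knockdown vector was injected into the dorsal hippocampus itself, whose cells it need not all reach, and the contents of the control vector are not stated in the labels. The 3 replicates of each condition share 1 peak list for each mark, so every value below is 1 value per condition, with no spread between animals and no test. The targeted gene could not be checked, since peak lists of histone marks do not measure RNA. In bulk tissue, fewer cells of a type and less mark per cell cannot be told apart. The lists held between 31042 peaks (control vector with ethanol) and 42120 peaks (knockdown with ethanol) for H3K9ac, and between 86110 and 119317 for H3K27ac, acetylation at lysine 27. Sequencing depth per list is unknown. Deeper sequencing can lengthen both a list and its peaks, and its part in any difference between lists was not tested.

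Histone acetylation is written by acetyltransferases that use acetyl-CoA and is removed by deacetylases. ACSS2 makes acetyl-CoA from acetate, which the liver releases when it breaks down ethanol. H3K9ac marks the start of transcribed genes, where the mark usually lies on the nucleosomes after the start site, and H3K27ac marks active promoters and enhancers. In many tissues, unusually wide stretches of active promoter marks lie at genes that define the cell type or that are tightly regulated, and in neurons such genes include transcription factors, synaptic proteins and genes switched on by activity.

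The promoters of 8 genes are shown because they carry the positions that the domains take relative to a start site. Each is 300 bases (250 before to 50 after the start) from RefSeq on GRCm38.p6, written 5′ to 3′ on the gene's own strand, with CG dinucleotides in capitals. Irs2 (chr8:11008880-11009179, minus strand), Ctdsp2 (chr10:126978467-126978766, plus strand) and Anp32a (chr9:62341093-62341392, plus strand) start at the very edge of their domain, which then runs into the gene. Slit3 (chr11:35121206-35121505, plus strand), Sstr4 (chr2:148395127-148395426, plus strand) and Spry2 (chr14:105896770-105897069, minus strand) start further inside. Pcdh7 (chr5:57717831-57718130, plus strand) and Lrrc4 (chr6:28831698-28831997, minus strand) start near the middle and have fewer CG dinucleotides than the others shown.
Irs2: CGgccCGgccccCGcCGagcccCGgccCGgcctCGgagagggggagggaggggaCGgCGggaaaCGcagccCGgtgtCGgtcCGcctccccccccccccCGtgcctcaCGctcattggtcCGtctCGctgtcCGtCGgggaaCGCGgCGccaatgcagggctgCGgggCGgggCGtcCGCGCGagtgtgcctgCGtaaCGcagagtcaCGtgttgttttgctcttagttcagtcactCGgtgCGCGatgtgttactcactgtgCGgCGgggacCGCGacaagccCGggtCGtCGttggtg
Ctdsp2: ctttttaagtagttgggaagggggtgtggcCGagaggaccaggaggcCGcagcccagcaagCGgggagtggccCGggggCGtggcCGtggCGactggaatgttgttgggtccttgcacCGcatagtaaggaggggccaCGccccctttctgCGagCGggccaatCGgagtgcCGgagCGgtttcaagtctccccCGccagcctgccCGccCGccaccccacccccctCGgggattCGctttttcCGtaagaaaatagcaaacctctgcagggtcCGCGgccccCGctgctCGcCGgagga
Anp32a: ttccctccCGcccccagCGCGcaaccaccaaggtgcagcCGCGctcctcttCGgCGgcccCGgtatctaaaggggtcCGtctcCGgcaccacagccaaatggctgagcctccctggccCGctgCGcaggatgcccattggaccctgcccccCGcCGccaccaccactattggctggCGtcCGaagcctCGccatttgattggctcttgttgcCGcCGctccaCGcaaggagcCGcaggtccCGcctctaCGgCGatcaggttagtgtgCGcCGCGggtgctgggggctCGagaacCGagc
Slit3: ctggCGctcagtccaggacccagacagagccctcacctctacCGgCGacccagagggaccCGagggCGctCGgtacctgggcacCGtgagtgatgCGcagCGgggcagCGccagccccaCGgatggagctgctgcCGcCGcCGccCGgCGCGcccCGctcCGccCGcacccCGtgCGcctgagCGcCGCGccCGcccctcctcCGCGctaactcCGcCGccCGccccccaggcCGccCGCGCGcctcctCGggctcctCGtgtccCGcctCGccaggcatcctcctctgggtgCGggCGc
Sstr4: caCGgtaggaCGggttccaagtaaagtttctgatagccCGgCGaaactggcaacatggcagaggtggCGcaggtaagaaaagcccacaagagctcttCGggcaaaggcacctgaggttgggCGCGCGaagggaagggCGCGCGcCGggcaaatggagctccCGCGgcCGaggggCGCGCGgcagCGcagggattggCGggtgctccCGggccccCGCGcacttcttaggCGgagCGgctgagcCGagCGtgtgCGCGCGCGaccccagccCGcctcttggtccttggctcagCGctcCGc
Spry2: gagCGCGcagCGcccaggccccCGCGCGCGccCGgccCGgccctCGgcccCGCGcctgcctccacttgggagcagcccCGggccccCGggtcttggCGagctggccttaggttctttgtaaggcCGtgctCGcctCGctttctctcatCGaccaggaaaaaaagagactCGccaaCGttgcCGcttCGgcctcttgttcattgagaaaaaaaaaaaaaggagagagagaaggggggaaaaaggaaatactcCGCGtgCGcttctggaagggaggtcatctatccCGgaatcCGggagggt
Pcdh7: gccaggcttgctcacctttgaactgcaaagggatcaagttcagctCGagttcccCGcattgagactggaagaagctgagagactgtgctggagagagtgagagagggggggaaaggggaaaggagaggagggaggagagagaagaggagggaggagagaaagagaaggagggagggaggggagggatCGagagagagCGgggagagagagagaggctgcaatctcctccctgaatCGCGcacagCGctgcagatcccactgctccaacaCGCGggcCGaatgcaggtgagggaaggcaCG
Lrrc4: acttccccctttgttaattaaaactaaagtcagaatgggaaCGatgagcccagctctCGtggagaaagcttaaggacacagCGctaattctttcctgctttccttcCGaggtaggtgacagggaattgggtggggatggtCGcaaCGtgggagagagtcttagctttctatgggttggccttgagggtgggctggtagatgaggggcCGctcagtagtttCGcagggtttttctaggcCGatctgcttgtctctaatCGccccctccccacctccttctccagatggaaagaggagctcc
The domain of Irs2, which encodes an adaptor protein of the insulin receptor, reached 1 bp before the start and 7152 bp after it. That of Ctdsp2, a phosphatase gene, reached 55 bp before and 5636 bp after, and that of Anp32a, a chromatin-associated protein, 3 bp before and 5299 bp after. Slit3, a secreted axon guidance ligand, had 358 bp before and 3015 bp after. Sstr4, a somatostatin receptor, had 569 bp before and 2611 bp after, and Spry2, a feedback inhibitor of growth factor signalling, 1376 bp before and 3968 bp after. Pcdh7, a protocadherin, had 3119 bp before and 2904 bp after its start. Lrrc4, a synaptic adhesion protein, had 2552 bp before and 3666 bp after.

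Apart from the other domains stood 3 regions, and they are given first because some counts rest on them. They are chr14:19415695-19419496 (3802 bp), chr9:3027434-3031050 (3617 bp) and chr9:3034257-3037580 (3324 bp), none of which overlaps a gene in the RefSeq table. The region on chromosome 14 had 2196 bp under H3K9ac peaks in the untreated control list, 3802 bp with ethanol, 2081 bp in the untreated knockdown and 1413 bp in the knockdown with ethanol. On chromosome 9 the wider region had 2200, 3617, 1787 and 1719 bp in the same order, and the narrower one 1549, 3324, 1422 and 969 bp. All 3 were therefore covered over their full width in the control list with ethanol and in part elsewhere, the reverse of most domains. Their H3K27ac cover lay between 0 and 459 bp in every list, a mean of 3.02% to 5.45% of their width, against 46.4% for Purb, the next lowest domain. They were left out where stated, a choice made after seeing the data.

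The domains were 3000 to 7955 bp wide with a median of 3474 bp, where the median merged region measured 337 bp. Of the 475, 117 were 4 kb or wider and 29 were 5 kb or wider. All 475 held a peak in each of the 4 H3K9ac lists, as did 99.9% of the 1840 regions of 2 kb to under 3 kb and 36.2% of all regions under 3 kb. Joining the lists mattered: in 235 domains no single peak of any list reached 3 kb, in 146 a peak of 1 list did, in 52 of 2 lists, in 29 of 3 lists and in 13 of all 4 lists. The last regions below 3000 bp lay at Fbxo36 and Trip12 (2998 bp), at Aup1, Htra2 and Loxl3 (2998 bp) and at Pfkfb2 and Yod1 (2993 bp). The first at or above it lay at Slc25a4 (3000 bp), within Dazap1 (3000 bp) and at Fosl2 (3001 bp). The values just inside and just outside the limit form a continuum: in the untreated control list Slc25a4 had 2026 bp under peaks and Fosl2 had 2334 bp, while the region of Fbxo36 and Trip12 had 2775 bp.

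**Figure D1:**
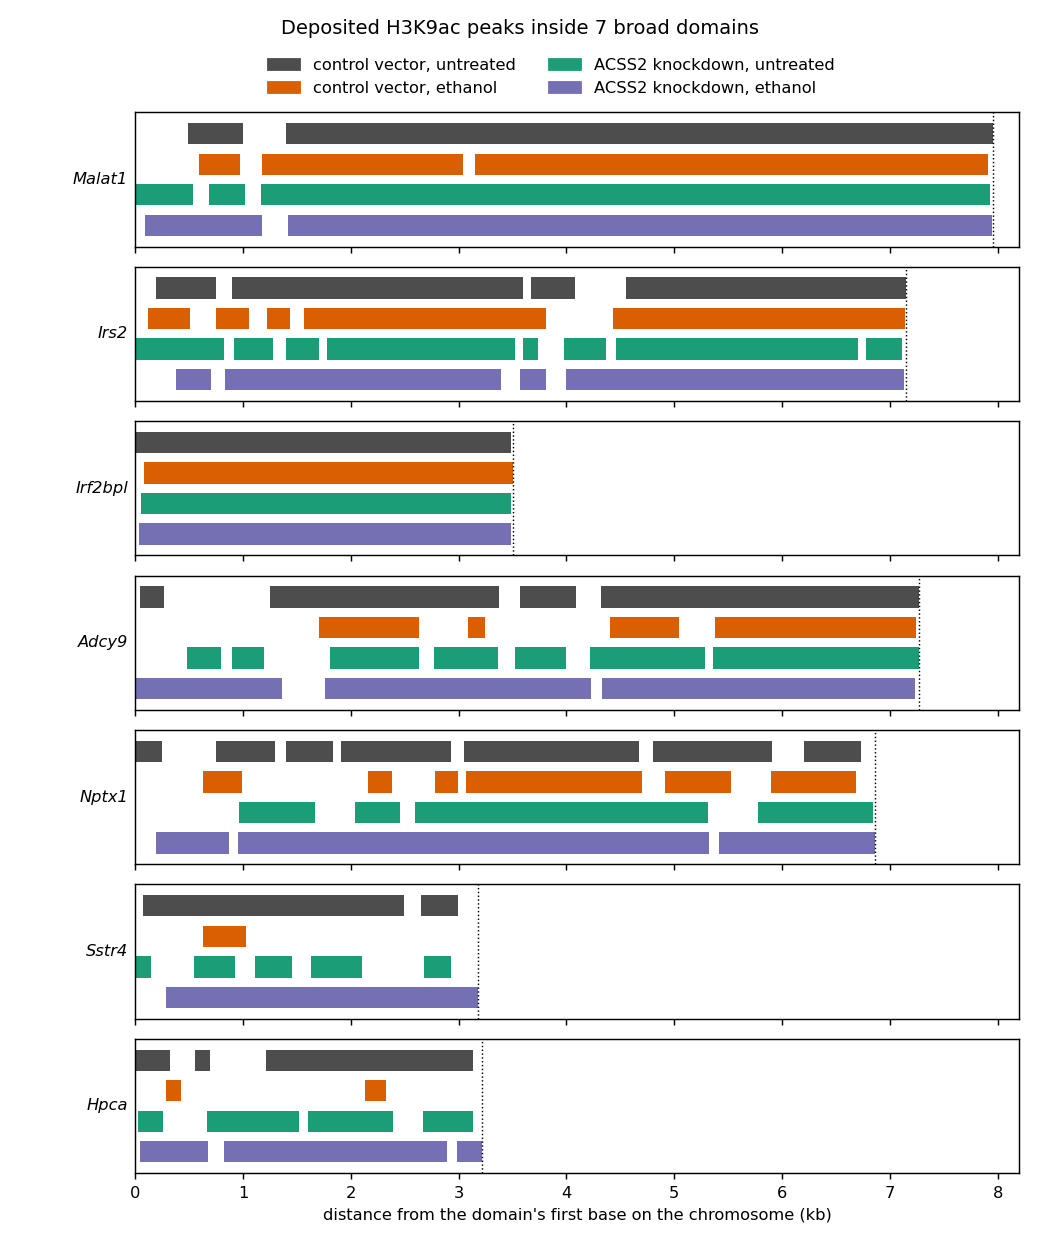
Deposited H3K9ac peaks (bars) in the 4 conditions across 7 of the domains, by distance in kb from the domain's first base; the dotted line is the domain's last base. Malat1 and Irs2 were nearly filled in all 4 lists and Irf2bpl by 1 peak in each, whereas Adcy9, Nptx1, Sstr4 and Hpca were covered least in the control list with ethanol.

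Gene positions did not enter the choice. An end of a protein-coding gene (either boundary of the gene) lay inside or within 1 kb of 342 domains (72.0%, Wilson 95% interval 67.8 to 75.8, counting error only), against 37.2% of merged regions under 3 kb. Regions of 2 kb to under 3 kb had one in 79.3% (77.4 to 81.1), so the share did not keep growing with width and was 70.1% (61.3 to 77.6) in the domains of 4 kb or more. A RefSeq start site lay inside 296 domains (62.3%), against 16.7% of regions under 3 kb and 67.1% of those from 2 to 3 kb. Of the 133 domains without a protein-coding end nearby, 110 still overlapped a protein-coding gene, 39 lay at the end of a lncRNA or miRNA gene, 70 held a start site in the promoter table and 7 overlapped no gene.

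Domains lay mostly downstream of the start. In 224 domains all start sites were on 1 strand, and in 72 (24.3%) they were on both strands. Over those 224, the median domain reached 726 bp upstream of the first start site and 2699 bp downstream, and 204 of them (91.1%, 86.6 to 94.1) reached further downstream. In the untreated control list 94.7% of the bases from 300 to 1000 bp after the start lay under an H3K9ac peak, 82.6% from 1000 to 2000 bp, 51.5% from 2000 to 3000 bp and 24.6% from 3000 to 4000 bp. Upstream, cover was 60.7% from 1000 to 300 bp before the start and 22.1% in the kilobase before that. With ethanol in the control vector the same downstream windows read 85.4%, 62.0%, 30.9% and 13.5%, and the upstream ones 46.4% and 15.9%. The knockdown with ethanol gave 97.3%, 86.8%, 56.5% and 27.8% downstream, and the untreated knockdown 94.6%, 83.0%, 50.6% and 24.6%. The control list with ethanol was thus the lowest in every window, and its gap to untreated was 9.21 percentage points from 300 to 1000 bp after the start and 20.6 points in each of the next 2 windows.

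**Figure D2:**
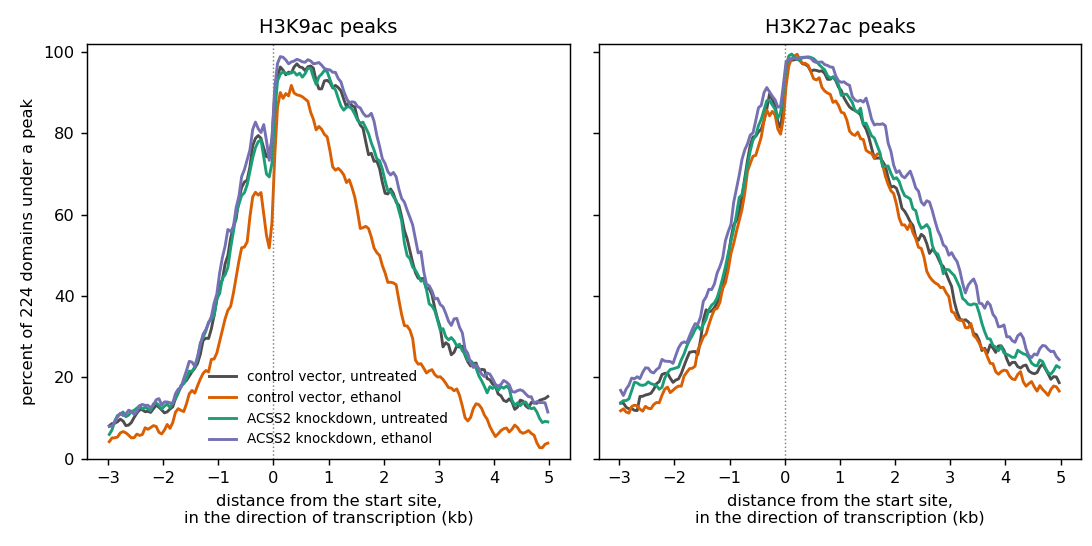
Percent of the 224 domains with start sites on 1 strand that lie under a peak, by distance in kb from the start site in the direction of transcription, for H3K9ac (left) and H3K27ac (right); each line is 1 deposited list. H3K9ac cover peaks just after the start, dips at it and reaches further downstream than upstream, and the control list with ethanol runs below the other 3.

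Peaks within a domain were split by short gaps, with a median of 148 bp in the untreated control list (736 gaps), 179 bp with ethanol (1073 gaps), 143 bp in the untreated knockdown (793 gaps) and 131 bp in the knockdown with ethanol (561 gaps). Of the 455 RefSeq start sites inside domains, 87.3% lay under a peak in the untreated control list, 70.5% with ethanol, 79.1% in the untreated knockdown and 87.9% in the knockdown with ethanol. At Sstr4 the 300 bases printed above were covered in full in the untreated control list, by 0 bases with ethanol, by 70 in the untreated knockdown and again in full in the knockdown with ethanol. H3K27ac covered all 300 in all 4 lists.

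The promoters in domains were rich in CG. Over 455 start sites the median was 23 CG dinucleotides in 300 bases, against 21 in merged regions under 3 kb, 26 in regions of 2 to 3 kb and 7 over all 32851 RefSeq promoters. Among those printed, Irs2 and Slit3 had 41, Sstr4 35, Anp32a 29, Spry2 28, Ctdsp2 25, Pcdh7 11 and Lrrc4 10. The letters GGGCGG, the core bound by Sp1-type factors, were found on either strand in 63.7% of promoters in domains, in 65.8% of those in smaller regions and in 35.7% of all RefSeq promoters. TATAAA was found in 5.27%, 5.58% and 13.6%, and the cAMP response element TGACGTCA in 3.52%, 3.06% and 1.79%. GGGCGG and TGACGTCA each hold a CG and TATAAA does not, and each motif was counted on its own whether or not it overlapped another. Domain promoters were therefore close to those of smaller H3K9ac regions in these letters and apart from the average promoter. A match describes letters in the window and is not a binding site. Genes that start in a domain were long, with a median of 34.6 kb over 297 protein-coding genes, against 24.8 kb for 7804 genes that start in a smaller region and 17.2 kb for all 21887.

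H3K27ac did not choose the domains, and it was present at nearly all of them. Of the 475, 472 (99.4%, 98.2 to 99.8) held H3K27ac peaks in all 4 lists, against 61.9% of merged regions under 3 kb and 99.9% of regions of 2 to 3 kb. The 3 exceptions were the 3 regions that stood apart, so that without them the share was 100%. The median domain had 88.2% of its bases under H3K27ac peaks in the untreated control list, 84.4% with ethanol, 90.3% in the untreated knockdown and 93.8% in the knockdown with ethanol. Regions of 2 to 3 kb gave 83.2%, 80.3%, 86.0% and 89.9%. Around start sites H3K27ac reached further than H3K9ac on both sides: in the untreated control list it covered 71.6% of the bases from 1000 to 300 bp upstream and 31.0% from 3000 to 4000 bp downstream. From 1000 to 2000 bp downstream it covered 79.1%, less than the 82.6% of H3K9ac. That H3K27ac list held 89935 peaks, against 38235 for H3K9ac. The lowest H3K27ac after the 3 regions was at Purb, a single-stranded DNA binding protein (1471, 1434, 2137 and 1761 of 3669 bp, in the order untreated control, ethanol control, untreated knockdown, ethanol knockdown), and at Gpr22, an orphan receptor (1964, 838, 2172 and 2284 of 3876 bp).

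The part of a domain that lay under H3K9ac peaks varied by list. The median domain was covered over 87.0% of its width in the untreated control list, 68.2% with ethanol, 86.7% in the untreated knockdown and 91.4% in the knockdown with ethanol. Cover summed to 1.52, 1.18, 1.51 and 1.59 Mb, and domains with a single peak of 3 kb or more numbered 107, 20, 95 and 167. The control list with ethanol was the least covered of the 4 in 427 domains (89.9%) and the knockdown with ethanol the most covered in 250 (52.6%). These counts were not made over the other merged regions. Regions of 2 to 3 kb had median H3K9ac cover of 86.9%, 68.9%, 84.8% and 89.1% in the same order of lists. The low cover in the control list with ethanol is thus not particular to the domains. For H3K27ac, too, the highest median was in the knockdown with ethanol and the lowest in the control with ethanol, and those 2 lists held the most and the fewest peaks for both marks. With the same number of peaks from each list, the 31042 of highest score, the median change with ethanol in the control vector was −16.0 percentage points of the domain's width. Peaks kept in this way retain the widths they had at an unknown read depth, so the part of depth was not tested.

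**Figure D3:**
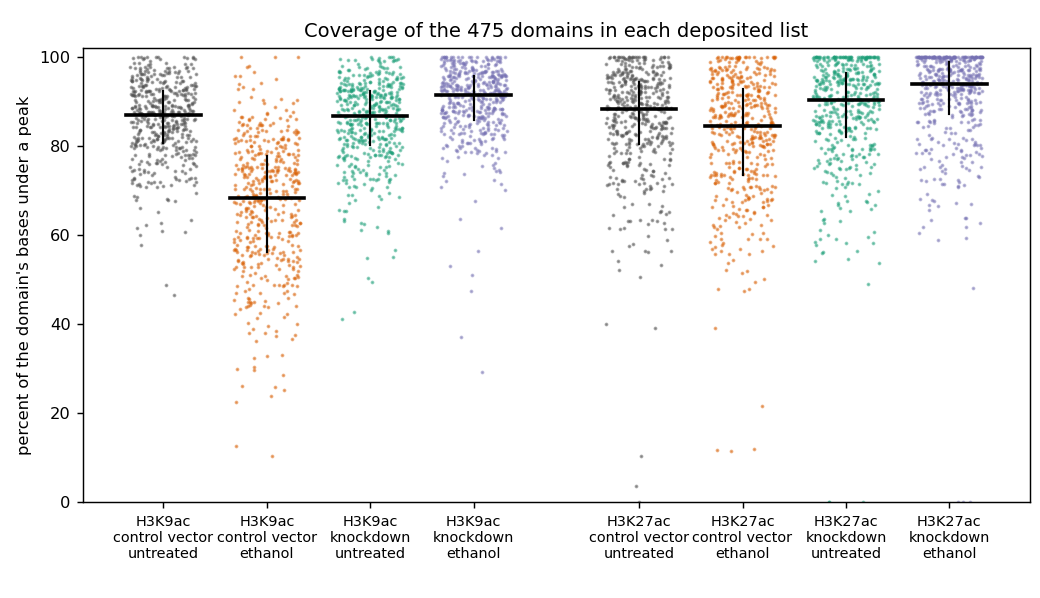
Percent of each domain's bases under a peak (points, 475 domains per list) in the 4 H3K9ac and 4 H3K27ac lists, with the median (thick line) and the quartiles (thin line). The H3K9ac list of the control vector with ethanol has its median at 68.2%, below the 86.7% to 91.4% of the other 3.

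Ethanol against untreated in the control vector compares injected ethanol with no treatment, where ACSS2 is not targeted. H3K9ac covered fewer bases with ethanol in 457 domains and more in 18, with a median change of −17.7 percentage points of the domain's width. By 1.5-fold or more, the difference used throughout, 115 domains (24.2%) were lower and 3 higher. Over all 35398 merged regions with a peak in either list the shares were 49.6% lower and 9.66% higher. Most of those are narrow, and a region with peaks in 1 list alone counts as past the fold. Nearer in width, the regions of 2 to 3 kb gave 22.1% lower and 0.0543% higher, with a median change of −16.7 points. The 3 higher domains were the regions that stood apart, and without them 115 were lower and 0 higher. Since these values helped to choose the domains, nothing is read from the counts. Domains chosen from the 2 knockdown lists alone, which the contrast does not use, numbered 320: 301 had less cover with ethanol and 18 more, 64 were lower by 1.5-fold and 0 higher, and the median went from 87.5% untreated to 71.6% with ethanol. H3K27ac in the 475 domains was less covered in 302 and more in 169, with a median change of −2.60 points. It was lower by 1.5-fold in 4 domains and higher in 3. All merged regions gave 16.4% lower and 14.8% higher, and regions of 2 to 3 kb gave 1.03% and 0.380%. The 4 lower ones lay at Gpr22, at Myt1l (a neuronal transcription factor, 3032 to 2012 bp), at Kalrn (an exchange factor of dendritic spines, 3243 to 1973 bp) and at Atp6v0a1 (a proton pump subunit, 2606 to 1620 bp). The 3 higher ones were 2 of the regions that stood apart and Zbtb41 (1191 to 2121 bp). These were named after their values were seen, Gpr22 and the 2 regions aside.

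The largest falls in covered bases with ethanol in the control vector were as follows. Nfib, a transcription factor of neural development, had 5199 bp under H3K9ac peaks untreated and 2712 bp with ethanol, and 4418 and 4571 bp in the knockdown. Sstr4 had 2768 and 400 bp, and 1598 and 2893 bp in the knockdown. At both genes the ethanol control list was the lowest of the 4. Bcl9l, a coactivator of Wnt signalling, had 4215 and 1940 bp, and 3207 and 4484 bp in the knockdown. Adcy9, an adenylyl cyclase, had 5830 and 3575 bp, and 5485 and 6724 bp in the knockdown. Lgi1, a secreted synaptic protein whose loss causes epilepsy, had 3509 and 1287 bp, and 2881 and 3549 bp in the knockdown. H3K27ac changed by fewer bases: from 3962 to 3322 bp at Nfib and from 3098 to 2523 bp at Sstr4, with 4149 to 4682 bp at Bcl9l. Beyond the 3 regions, the largest gains with ethanol were at Phlpp1, a phosphatase of Akt (3060 to 3737 bp), and at Slc25a4, the mitochondrial ADP/ATP carrier (2026 to 2543 bp).

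In the ACSS2 knockdown the sign was mostly the other way. H3K9ac was less covered with ethanol in 151 domains and more in 323, with a median change of 4.10 points. By 1.5-fold, 2 domains were lower and 4 higher. All 43905 merged regions with a peak in either list gave 20.7% lower and 34.9% higher, and regions of 2 to 3 kb gave 0.543% and 3.48%. The 2 lower ones were Pcdhgc3, a clustered protocadherin (2532 bp untreated, 1663 bp with ethanol), and the stretch within Dazap1, an RNA-binding protein (2375 and 1530 bp). The 4 higher ones were Cnp, an enzyme of myelin (1416 and 2675 bp), Slit3 (2055 and 3363 bp), Sstr4 (1598 and 2893 bp) and Tenm2, a synaptic adhesion protein named after its values were seen (1801 and 2796 bp). Largest in bases was Nptx1, a pentraxin that gathers glutamate receptors, with 4900 bp untreated and 6490 bp with ethanol. The largest fall was at Sox8, a transcription factor of the oligodendrocyte lineage, with 5414 and 4498 bp. The 159 domains chosen from the 2 control lists had less cover with ethanol in 56 and more in 100, a median of 92.3% untreated and 94.3% with ethanol, and 0 past 1.5-fold in either direction. H3K27ac was less covered in 144 domains and more in 308 (median change 2.42 points). It was lower by 1.5-fold in 0 and higher in 2, Chd9 (1561 to 2604 bp) and Fosl2 (1691 to 2917 bp). All merged regions gave 8.32% and 17.8%, and regions of 2 to 3 kb gave 0.218% and 0.598%. Chd9, a chromatin remodeller, was named after its values were seen.

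The 2 ethanol contrasts share no list. With ethanol, 313 of the 475 domains (65.9%) were less covered in the control vector and more covered in the knockdown. As 457 were less covered in the control vector and 323 more covered in the knockdown, unrelated changes would give a count near this. The count therefore does not show that single domains reversed, and it was not made over all merged regions. Summed over the domains, H3K9ac cover changed by −22.4% in the control vector and by 5.21% in the knockdown. All merged regions gave −28.7% and 10.8%, and regions of 2 to 3 kb gave −21.1% and 5.51%. The difference between the 2 vectors was not tested, as each value comes from 1 pooled list.

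**Figure D4:**
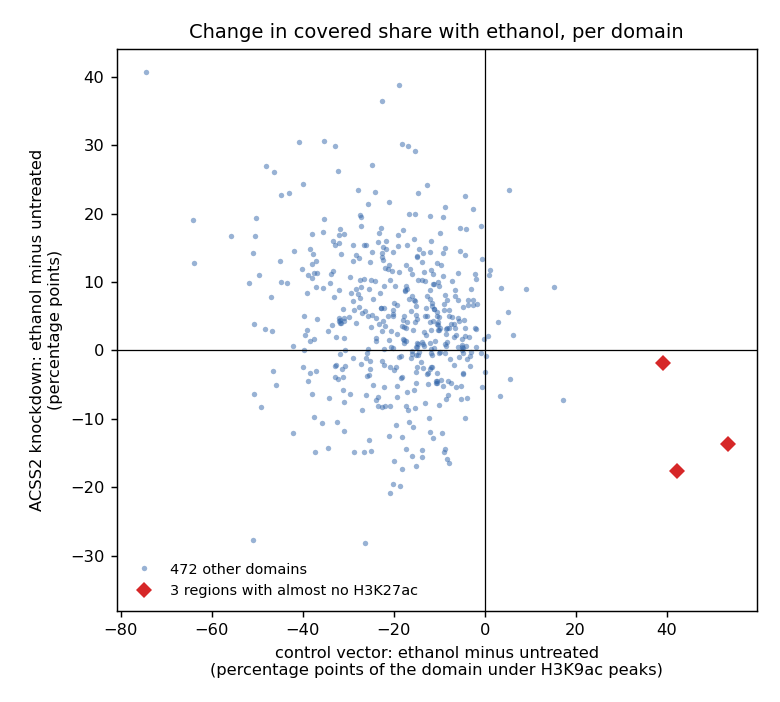
Change with ethanol in the share of each domain under H3K9ac peaks (ethanol minus untreated, percentage points), in the control vector (horizontal axis) and in the ACSS2 knockdown (vertical axis). Most of the 472 domains (circles) lie left of 0, and the 3 regions with almost no H3K27ac (diamonds) lie at the far right.

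Knockdown against control vector in untreated mice compares the 2 vectors without ethanol, and loss of ACSS2 itself was not measured. H3K9ac was less covered in 241 domains and more in 234, with a median change of −0.160 points. By 1.5-fold, 3 domains were lower and 0 higher, against 28.7% and 24.9% of all merged regions and 2.39% and 0.870% of regions of 2 to 3 kb. The 3 were Sstr4 (2768 bp in control, 1598 bp in knockdown), Srrt, an RNA processing factor (3083 and 2033 bp), and Cnp (2246 and 1416 bp). In bases the largest loss was at H13, a signal peptide peptidase (3591 and 2405 bp). The largest gain was at 3110039M20Rik (3394 and 4695 bp), and Tsc22d2 followed (2820 and 3957 bp). Prkar1a, a regulatory subunit of protein kinase A, had 3069 and 3908 bp, and Hey1, a Notch target, 2541 and 3347 bp. The 215 domains chosen from the 2 ethanol lists had less cover in 117 and more in 97, with medians of 91.8% in control and 91.0% in knockdown. The sign of the median change over the domains turned under 2 other settings, to 0.341 points with equal numbers of peaks and to 0.208 points with domains from the 3 lists other than the ethanol control. H3K27ac was less covered in 178 and more in 286 (median change 1.72 points). It was lower by 1.5-fold in 2, both among the regions that stood apart, and higher in 1, Zbtb41 (1191 and 2180 bp). All merged regions gave 11.0% and 18.8%, and regions of 2 to 3 kb gave 0.326% and 0.652%.

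With ethanol, knockdown against control vector gave the largest difference of the 4 contrasts. H3K9ac was less covered in the knockdown in 17 domains and more in 458, with a median change of 21.5 points. By 1.5-fold, 3 domains were lower and 152 (32.0%) higher, and the 3 lower ones were again the regions that stood apart. All merged regions gave 8.07% and 56.0%, and regions of 2 to 3 kb gave 0.0543% and 25.3%. Adcy9 had 3575 bp in control and 6724 bp in knockdown, and Synpo, an actin regulator of the spine apparatus, had 2112 and 4791 bp. Nptx1 had 3841 and 6490 bp. Hpca, the calcium sensor hippocalcin, had 337 and 2941 bp, and Bcl9l 1940 and 4484 bp. After the 3 regions the largest losses were at Bace1, the β-secretase that cleaves the amyloid precursor (2304 and 1885 bp), and within Dazap1 (1818 and 1530 bp). The 250 domains chosen from the 2 untreated lists had less cover in 11 and more in 239, 0 lower and 45 higher by 1.5-fold, and medians of 74.7% in control and 92.8% in knockdown. H3K27ac was less covered in 68 and more in 398 (median change 7.47 points). It was lower by 1.5-fold in 3, the regions that stood apart, and higher in 13. All merged regions gave 6.40% and 25.3%, and regions of 2 to 3 kb gave 0.109% and 3.04%. This contrast shares the ethanol control list with the first and the ethanol knockdown list with the second.

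Change in H3K9ac and in H3K27ac went together weakly across domains. Pearson's r over 475 domains was 0.248 for ethanol in the control vector, 0.102 for ethanol in the knockdown, 0.0603 for the vectors untreated and 0.427 for the vectors with ethanol. Domains share the 4 lists, and the marks may share input libraries, so these values are descriptions.

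Domains differed in how even they were. The ratio of the most to the least covered list had a median of 1.37, and 300 domains (63.2%) stayed under 1.5. Irf2bpl, a transcriptional coregulator, was the most even, with 3487 bp in the untreated control list, 3424 bp with ethanol, 3434 bp in the untreated knockdown and 3453 bp in the knockdown with ethanol. Adgrl3, a latrophilin receptor of the synapse, had 3618, 3512, 3604 and 3598 bp in the same order. Marcks, a membrane protein that binds actin, had 2835, 2739, 2822 and 2799 bp. These 3 were alike across all 4 lists, the ethanol control included. Least even was Hpca, with 2395, 337, 2330 and 2941 bp, and then Sstr4. Tenm2 had 2070, 734, 1801 and 2796 bp, and Grm2, a metabotropic glutamate receptor, 1956, 830, 1964 and 2935 bp. In each of these 4 the ethanol control list was far below the rest, and the other 3 lists also differed among themselves, with the knockdown with ethanol the highest. Irf2bpl, Adgrl3, Marcks, Tenm2 and Grm2 were picked for this ratio after seeing it, although Adgrl3 and Grm2 are also named by the gene lists.

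The widest domains were a mixed set of long noncoding RNAs, signalling genes and synaptic genes. Malat1, a nuclear long noncoding RNA abundant in neurons, had the widest at chr19:5794676-5802630 (7955 bp), with 7071, 7000, 7641 and 7617 bp covered (untreated control, ethanol control, untreated knockdown, ethanol knockdown). It hardly differed between lists. Adcy9 followed with 7273 bp inside the gene at chr16:4413183-4420455, and Irs2 with 7154 bp, of which 6269, 5871, 6335 and 6266 bp were covered. Nptx1 measured 6860 bp and was covered over 5496, 3841, 4900 and 6490 bp. At Cdk5r1, the activator of the neuronal kinase Cdk5, and Myo1d the domain measured 6616 bp, with 6170, 4658, 5526 and 5935 bp. Lrrc4 measured 6219 bp, with 5404, 3417, 5049 and 5599 bp. In these 3 the ethanol control list was the lowest and the order of the others varied. Lncpint, a long noncoding RNA, measured 6148 bp, Pcdh7 6024 bp and Zbtb20, a transcription factor of hippocampal pyramidal neurons, 5962 bp. Next came Bahcc1 (5943 bp), Rhof and Setd1b, the latter a histone methyltransferase (5739 bp), Scd2, a fatty acid desaturase (5731 bp), Sox8 (5698 bp) and Ctdsp2 (5692 bp). Tcf4, a basic helix-loop-helix transcription factor (5676 bp), Cyth1 (5650 bp), Spry2 (5345 bp), Nfib (5331 bp), Zmynd8, an acetyl-histone reader (5305 bp), and Anp32a with Gm20346 (5303 bp) closed the first 20. The 5 widest without a protein-coding gene end within 1 kb were Malat1, Adcy9, Lncpint, Zbtb20 and Tcf4.

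In 13 domains each of the 4 lists held a peak of 3 kb or more, alone or beside shorter ones; they are named here after that was seen. They were Malat1, Spry2, Anp32a, Ppp1r9b, Tnrc18, Smad7, Bcl11a, Adgrb1, Msl1, Ptch1, Cxxc5, Adgrl3 and Irf2bpl. Spry2, Smad7 and Ptch1 encode inhibitors within growth factor, TGF-β and Hedgehog signalling. Ppp1r9b encodes the spine protein spinophilin, and Adgrb1 an adhesion receptor of the synapse. More than 1 domain overlapped 5 protein-coding genes, of which 4 are named after seeing this. Tcf4 overlapped 3, of 4065, 4268 and 5676 bp. Gse1 overlapped 2 of 5299 and 3445 bp, Tnrc18 2 of 4987 and 4521 bp, and Tsc22d1 2 of 3033 and 3694 bp.

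Genes were also read by list, counting those with an end inside or within 1 kb of a domain: 403 of 21887 protein-coding genes (1.84%), or 3.41% of the 11810 that had an H3K9ac region present in all 4 lists. Ends are the outer boundaries of a gene, so a start site further inside the gene did not count. The lists were written with earlier results of these data known, and no test was made of them. Up to 4 members of a list are named by domain width, and any further name completes a count and was added after its value was seen.

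Markers and transcription factors of pyramidal neurons, the principal excitatory cells, had a domain in 8 of 20 genes (40.0%, 21.9 to 61.3), or 8 of the 16 with H3K9ac. Bcl11a, a transcription factor, had 4395 bp under peaks in the untreated control list, 3912 bp with ethanol, 4519 bp in the untreated knockdown and 4314 bp in the knockdown with ethanol. Bcl11b, its relative in cortical and hippocampal neurons, had 4255, 2539, 3652 and 4222 bp. Both were lowest in the ethanol control list, Bcl11b more so. Mef2d, a calcium-regulated transcription factor, had 3728, 3613, 3644 and 3935 bp. Across the list's 9 domains, ethanol gave less cover in 9 of 9 in the control vector (median change −23.4 points, 3 lower by 1.5-fold) and in 2 of 9 in the knockdown (7.55 points). Over all domains the medians were −17.7 and 4.10 points, with less cover in 457 and 151 of 475 and 24.2% lower by 1.5-fold in the control vector. Another 4 of the 20, Mef2c, Zbtb20, Nfix and Camk2a, overlapped a domain away from their ends. The domain at Nfix held 2 RefSeq start sites of that gene.

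Markers of other cells of the tissue seldom had one. Domains reached 0 of 20 interneuron, 0 of 20 astrocyte, 0 of 20 microglial, 0 of 20 endothelial and 0 of 20 ependymal or neighbouring-region markers, each with an upper Wilson bound of 16.1%. Of these, 3, 13, 4, 5 and 6 had an H3K9ac region in all 4 lists. Oligodendrocyte markers had 1 of 20, Sox8 (5050, 3918, 5414 and 4498 bp), and Cnp overlapped one beyond 1 kb from its ends. Of the 20 pyramidal neuron genes that stand for the labelled tissue, 16 had such a region.

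Immediate early and activity genes, which neurons switch on within minutes of firing, had a domain in 6 of 24 (25.0%). Nr4a3, a nuclear receptor, had 3865, 2774, 3945 and 3825 bp (untreated control, ethanol control, untreated knockdown, ethanol knockdown). Dusp6, a phosphatase of ERK, had 2327, 1805, 2420 and 3415 bp, Egr3, a zinc finger factor, 3089, 1684, 2591 and 3078 bp, and Jun, part of AP-1, 2729, 2340, 3237 and 2847 bp. All 4 were lowest in the ethanol control list. Ethanol gave less cover in 6 of 6 of the domains in the control vector (−17.2 points) and in 3 of 6 in the knockdown (0.257 points), beside 457 and 151 of 475 over all domains. Growth factor feedback inhibitors had 5 of 20: Spry2, Dusp7, Dusp8, Dusp4 and Spred1, with −18.0 points in the control vector and 1.70 in the knockdown, beside −17.7 and 4.10 over all domains. Spry2 was covered over 4763, 4528, 4547 and 5290 bp and Dusp7, an ERK phosphatase, over 4839, 3705, 4851 and 4435 bp.

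Synaptic adhesion genes had 9 of 39 (23.1%, 12.6 to 38.3), led by Nlgn2, a neuroligin of inhibitory synapses (2923, 2494, 3180 and 3163 bp), Slitrk5 (3291, 2301, 3192 and 3545 bp), the receptor phosphatase Ptprs (3575, 2489, 3309 and 3531 bp) and Adgrl3. Less cover with ethanol was seen in 9 of 9 in the control vector (−24.9 points) and in 3 of 9 in the knockdown (5.87 points), beside 457 of 475 (−17.7 points) and 151 of 475 (4.10 points) over all domains. Presynaptic release genes had 3 of 29, and each was lower by 1.5-fold with ethanol in the control vector, as were 24.2% of all domains and 49.6% of all merged regions. Bsn, the active zone scaffold bassoon, had 2932, 1205, 2769 and 3099 bp. Syt1, the calcium sensor of vesicle fusion, had 2277, 730, 1941 and 2535 bp. Nsf, the ATPase that takes SNARE complexes apart, had 2151, 1134, 2740 and 2852 bp. The ethanol control list was below the other 3 at each of them, and the median change was −50.3 points against 9.91 in the knockdown. H3K27ac at the same domains went from 2795 to 2144 bp at Bsn, from 2183 to 1583 bp at Syt1 and from 2466 to 2128 bp at Nsf. Glutamate receptor and postsynaptic genes had 3 of 40: Grin2a (3682, 2300, 3473 and 4240 bp) and Grin2b (2574, 2161, 2682 and 2843 bp), subunits of the NMDA receptor, and Grm2. GABA receptor and signalling genes had 0 of 20 at their ends, with 17 of them in H3K9ac regions, and Gphn and Slc12a5 overlapped a domain elsewhere in the gene. The domain at Slc12a5 held 1 RefSeq start site of that gene, away from its outer ends.

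**Figure D5:**
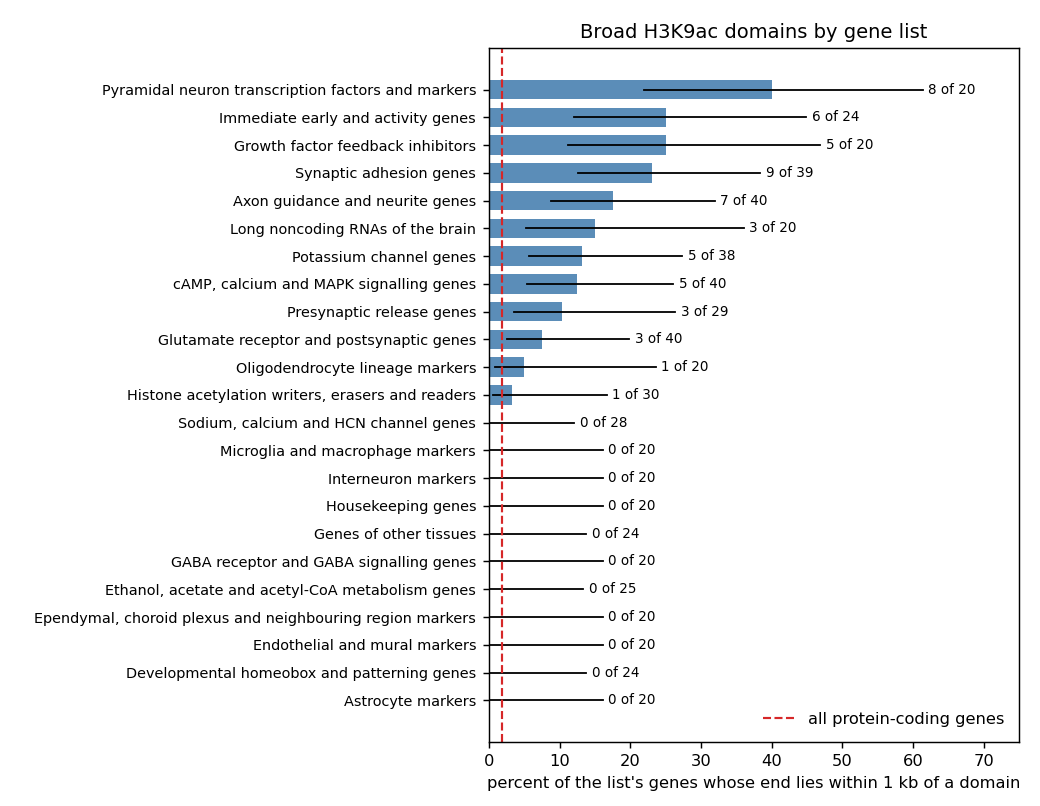
Percent of each list's genes with an end inside or within 1 kb of a broad H3K9ac domain (bars), with Wilson 95% intervals (lines, counting error only) and counts; the dashed line is the 1.84% of all protein-coding genes. Pyramidal neuron genes are at the top with 8 of 20, and 11 lists have none.

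Potassium channel genes had 5 of 38: Kcna1 (3401, 3316, 3692 and 3824 bp), Kcnab2 (3529, 2567, 3151 and 3721 bp), Kcnq3 (3143, 2297, 2926 and 3402 bp), Kcnj6 (2889, 2258, 3502 and 3483 bp) and Kcnc4. Sodium, calcium and HCN channel genes had 0 of 28 at their ends, though 22 lay at H3K9ac regions, and Cacna1a and Cacna1e overlapped a domain away from their ends. Axon guidance and neurite genes had 7 of 40, with the semaphorin receptors Nrp1 (3880, 3052, 3650 and 3848 bp) and Plxna2 (3258, 2134, 2885 and 3209 bp), the ligands Efnb3 (3391, 2600, 2772 and 3240 bp) and Sema7a (3276, 2528, 2878 and 2587 bp). Genes of cAMP, calcium and MAPK signalling had 5 of 40. They included Prkar1a, the kinase Prkce (3203, 2755, 3487 and 3365 bp), the calmodulin gene Calm3 (3000, 2874, 3243 and 3203 bp) and the calcineurin subunit Ppp3ca (2600, 2485, 2939 and 3177 bp). The median change of these 5 domains with ethanol in the control vector was −3.89 points, beside −17.7 points over all domains. Less cover was seen in 4 of 5 (457 of 475 over all domains). Adcy9 and Pde10a of the same list overlapped a domain away from their ends and are not in this median. Adcy9, with 5830 bp untreated and 3575 bp with ethanol, is among the largest falls given above. Long noncoding RNAs had 3 of 20, Malat1, Neat1 (3024, 2268, 2478 and 3080 bp) and Gas5 (3035, 2686, 3012 and 3463 bp).

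Lists tied to acetyl-CoA and histone acetylation had shares near the 1.84% of all genes. Ethanol, acetate and acetyl-CoA metabolism genes had 0 of 25, of which 18 lay at H3K9ac regions, and histone acetylation writers, erasers and readers had 1 of 30, the reader Brd2 (4167, 3512, 4196 and 4164 bp). Housekeeping genes had 0 of 20 although 19 lay at H3K9ac regions in all 4 lists, and patterning genes and genes of other tissues had 0 of 24 each. Of the patterning genes 0, and of the genes of other tissues 2, had an H3K9ac region in all 4 lists.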

How the data were processed

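ChIP-seq for H3K9ac and H3K27ac covered 24 ChIP samples and 12 inputs, 3 replicates in each of 12 groups. Each mark in each condition has 1 peak list among the 8 that the authors deposited, with a score per peak taken here to be a q-value on the −log10 scale. Per the labels, peaks were called against input at a false discovery rate of 0.001, and the lowest score is 3.00. Per the submitters' processing notes, the tools included MACS2, bedtools, STAR 2.5.2a and bcl2fastq with the genome GRCm38 (mm10); their roles, how replicates were pooled and the read depth are not given in the sources used here. With 1 list per condition, no p-value is given, and leaving out a replicate was not possible.

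Peaks of the 4 H3K9ac lists were merged on assembled chromosomes (Python 3.11.15, numpy 2.4.6), and bases under peaks were counted per list; both steps were tested on simulated data. A region was lower or higher at a ratio of covered bases of 1.5 or more. Gene positions, promoters and miRNAs are from RefSeq on GRCm38.p6, the same build as the lists; all 601 listed genes matched. Scores were used in 2 alternatives alone, as a minimum and to shorten lists. Shares carry Wilson 95% intervals for counting error.

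The domains and gene lists were chosen with earlier results of these data known. Named were the 20 widest domains, the 5 largest falls and rises in covered bases per contrast, up to 4 members of each gene list by domain width, the 5 domains with least H3K27ac, the 5 widest without a gene end and the 3 on each side of 3000 bp; promoters were shown for up to 8 genes of the first 2 kinds. Alternatives changed the merging, the width minimum, the score minimum, the list length, the fold, the gene window and the lists that choose the domains; 2 more were added after seeing the data. The values of 1 gene that this rule names are not reported here.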

Additional observations from a re-analysis of the deposited data

Results flagged for a closer look

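The sum of H3K9ac-covered bases over the 475 domains changed with ethanol by −22.4% in the control vector and by 5.21% in the ACSS2 knockdown. For H3K27ac the changes were −3.92% and 3.53%. Both pairs are given because the sign is opposite in the 2 vectors. It was opposite over all merged regions too, with −28.7% and 10.8% for H3K9ac and −2.45% and 6.39% for H3K27ac. Regions of 2 to 3 kb gave −21.1% and 5.51% for H3K9ac and −3.33% and 3.89% for H3K27ac. The opposite signs are thus not particular to the domains. The difference between the vectors was not tested, since each value comes from 1 pooled list.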

How the results depend on the processing

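Of 59 alternatives, 32 stayed within counting error of the share reported (for the number of domains, within 1.5 times), 27 moved it and 0 reversed it. Only the alternatives of the 4 contrasts could be labelled reversed. For the vectors untreated the counting interval of the percent lower ran from 43.9 to 100, on 3 domains. Alternatives that stayed within it therefore give little support. The number of domains (475) was 2000 when peaks up to 500 bp apart were merged, 2315 at a width minimum of 2000 bp, 117 at 4000 bp and 240 for single peaks of 3000 bp or more. The share with a gene end (72.0%) became 80.3% with wider merging, 77.8% at 2000 bp, 81.3% within 5000 bp and 52.0% for ends inside the domain. H3K27ac in all 4 lists (99.4%) became 99.9% with wider merging, 100% at 4000 bp, without the 3 regions that stood apart and with domains from the 3 lists other than the ethanol control (both added after seeing the data), and 97.7% where 50% of the domain had to be covered. Of domains past 1.5-fold with ethanol in the control vector, the percent lower (97.5) was 99.8 with wider merging, 99.2 at 2000 bp and 100 at 4000 bp, without the 3 regions, from the 3 lists and from the 2 lists outside the contrast. The 3 regions are the only higher domains and are narrower than 4000 bp, so the value at 4000 bp and without them was fixed in advance. The 3 lists hold the untreated list of this contrast and not its ethanol list, which favours less cover with ethanol. These settings are counted among the 59 but give no support. In the knockdown the percent lower (33.3) was 8.33 at scores of 5 or more, a value on 12 domains. The main value rests on 2 lower and 4 higher, so its counting interval is wide; the counts were 12 and 89 with wider merging, 12 and 68 at 2000 bp, 1 and 9 with equal numbers of peaks and 8 and 34 at a fold under 1.5. For the vectors untreated, 3 lower and 0 higher became 66 and 31, 47 and 16, 5 and 1, and 19 and 13 under the same settings, and 9 and 1 at scores of 5 or more. Their median change of −0.160 points turned to 0.341 with equal numbers of peaks (221 less, 230 more) and to 0.208 with domains from the 3 lists (218 less, 224 more). For knockdown against control with ethanol the percent lower (1.94) was 0.477 with wider merging, 0.643 at 2000 bp, 7.69 at 2-fold, and 0 at 4000 bp, without the 3 regions, from the 3 lists and from the 2 lists outside the contrast. Here the 3 regions are the only lower domains and the 3 lists leave out the control list, so the same limits hold. Wider merging and a lower minimum test more regions by construction; the cause of the other shifts was not tested. At 4000 bp, at 2-fold and with the 2 outside lists, no domain was past the fold for ethanol in the knockdown or for the vectors untreated, so these give no value. No paired analysis was possible because each group has 1 pooled list. Read depth behind the lists limits every width.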

Other observations

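The X chromosome held 999 of the merged H3K9ac regions (1.93%) but none of the 475 domains, which allows a share of up to 0.300% of its regions at 3 counts, against 0.938% on the 19 autosomes. Its widest merged region lay at Ogt, the enzyme that adds N-acetylglucosamine to nuclear proteins, and measured 2215 bp (chrX:101640076-101642290). Of the 1840 regions of 2 kb to under 3 kb, 2 lay on X. The mice were male, with a single X per cell, and whether this bears on the count was not tested. On the autosomes the domains ranged from 15 on chromosome 16 to 45 on chromosome 11.

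RefSeq miRNA hairpins lay inside 5 domains of 1005 hairpins in the table, and 104 lay inside smaller merged regions. Mir9-3, a copy of the neural miRNA miR-9, lay in a domain of 3043 bp that also holds its host transcript Mir9-3hg, with 2702 bp covered in the untreated control list, 2247 bp with ethanol, 2179 bp in the untreated knockdown and 2594 bp in the knockdown with ethanol. Mir760 lay in a domain of 3136 bp with 2279, 1766, 2524 and 2899 bp in the same order. The mature sequences of these 2 are shown with the seed, bases 2 to 8, in capitals, since they are the products that such a domain covers.
mmu-miR-9-5p: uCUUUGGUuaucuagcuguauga
mmu-miR-9-3p: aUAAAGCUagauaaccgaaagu
mmu-miR-760-3p: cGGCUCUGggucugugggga
mmu-miR-760-5p: cCCCUCAGgccaccagagcccgg
The 4 seeds differ from one another. The other 3 hairpins, Mir7045 in Chd4, Mir7687 in Gse1 and Mir6976 at Srf, lie within a protein-coding gene or at its edge. All 5 hairpins were under H3K9ac peaks in every list, except Mir6976 in the control list with ethanol, where 0 of its 63 bases were covered. H3K27ac peaks covered all 5 in every list.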
